A study of Mus musculus with 16 samples.

Results

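The mitochondrially encoded genes were taken as every row of the expression table whose gene name begins with mt-. There were 35 such rows among 49315, made up of 13 protein-coding genes and 22 transfer RNA (tRNA) genes, out of 37 mitochondrial genes in GENCODE mouse release 21. The ribosomal RNA genes mt-Rnr1 and mt-Rnr2 were not analysed here. RNA had been sequenced from intervertebral discs of 16 mice, with the 4 tail discs of a mouse pooled into 1 library. The mice were either wild type (WT) or of the Adam8EQ genotype (MUT), and their discs were either INTACT or INJURED. There were 3 wild-type intact, 4 wild-type injured, 4 mutant intact and 5 mutant injured mice. The series title names DBA, an inbred strain, on the wild-type side. The labels used here give no age or sex, no method or time of injury, and no description of what the EQ allele changes in Adam8, which encodes a membrane-anchored metalloprotease. Adam8 transcript was read in both genotypes, at 1.24 to 1.69 TPM in wild-type intact, 0.956 to 2.97 TPM in mutant intact, 3.52 to 66.3 TPM in wild-type injured and 16.2 to 264.1 TPM in mutant injured discs, so its level does not check the genotype. TPM is the number of reads of a gene divided by its length and scaled so that a library sums to 1000000, which allows levels of different genes to be set side by side.

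Mitochondria carry a small circular genome of their own. Both of its strands are transcribed as long precursors, the heavy-strand precursor holding most genes and the light-strand precursor holding mt-Nd6 and a minority of the tRNAs. The tRNAs lie between the coding genes and are cut out by RNase P and by Elac2, which frees the mRNAs on either side. The encoded proteins are core subunits of the respiratory chain: Nd1 to Nd6 of complex I, Cytb of complex III, Co1 to Co3 of complex IV, and Atp6 and Atp8 of ATP synthase. All other subunits, and all proteins that copy, transcribe and process the mitochondrial genome, come from nuclear genes. Cells of the disc live far from blood vessels and are known to rely largely on glycolysis. The nuclear genome of the mouse also holds stretches of old mitochondrial DNA, and annotated copies of this kind are described first.

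The longest run of such copies among annotated transcripts lay on chromosome 1, minus strand, at chr1:24611535-24616197 (GRCm38). It spanned 4653 bases of the mitochondrial chromosome, from base 6390 in mt-Co1 to base 11042 in mt-Nd4 (chrM:6390-11042), with gaps between the copies. No annotated copy of mt-Atp8 or of the tRNAs in this span met the bounds used. Those genes are counted as inside it by their position. The copies Gm28661 of mt-Co2, Gm10925 of mt-Atp6, Gm28437 of mt-Co3 and Gm10222 of mt-Nd4l were identical to the mitochondrial gene over 99.0% to 99.9% of its length, and Gm28439 was identical to the 63.6% of mt-Nd4 that it matched. In the other 2 copies a single base differed. Substitutions are written with the mitochondrial base first, its position from the first base of the mitochondrial gene, then the base in the copy: T3C in Gm28438 against mt-Nd3 and A1066T in Gm29216 against mt-Co1. The following stretches, read 5′ to 3′ on the strand of the mitochondrial gene from the GENCODE release 21 transcripts, show these differences in capitals.
mt-Nd3, bases 1 to 60: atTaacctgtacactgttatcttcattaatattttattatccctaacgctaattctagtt
Gm28438, chromosome 1: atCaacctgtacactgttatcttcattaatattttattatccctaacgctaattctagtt
mt-Co1, bases 1063 to 1122: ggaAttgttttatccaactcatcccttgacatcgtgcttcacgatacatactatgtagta
Gm29216, chromosome 1: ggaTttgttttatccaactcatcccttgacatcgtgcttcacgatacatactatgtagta
For mt-Co2 the identical copy on chromosome 1 is shown beside Gm13341, a more diverged copy on chromosome 2 (chr2:22587291-22587962, minus strand) that matched mt-Co2 at 95.9%. Capitals mark the bases at which the chromosome 2 copy differs.
mt-Co2, bases 1 to 60: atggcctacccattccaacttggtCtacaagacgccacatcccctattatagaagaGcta
Gm28661, chromosome 1: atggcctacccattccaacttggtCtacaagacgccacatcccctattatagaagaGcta
Gm13341, chromosome 2: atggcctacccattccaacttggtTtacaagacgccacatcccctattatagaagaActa

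The mRNA levels split by place relative to this stretch. The 7 mRNAs that lie outside it or reach beyond it had mean levels over the 16 libraries of 2476 to 19460 TPM. These were mt-Nd1 (chrM:2751-3707), mt-Nd2 (chrM:3914-4951), mt-Co1 (chrM:5328-6872), mt-Nd4 (chrM:10167-11544), mt-Nd5 (chrM:11742-13565), mt-Nd6 (chrM:13552-14070, light strand) and mt-Cytb (chrM:14145-15288). The other 6 mRNAs lie wholly inside it, and no library had more than 10.8 TPM of any of them. In order of mean level, mt-Co1 led with 19460 TPM, followed by mt-Nd1 with 11774, mt-Cytb with 6792, mt-Nd5 with 5790, mt-Nd6 with 5402, mt-Nd2 with 4066 and mt-Nd4 with 2476 TPM. The ranges over libraries of neighbours in this order overlapped. Within each of the 16 libraries, however, mt-Co1 was highest, mt-Nd1 next and mt-Nd4 lowest of the 7. Of mt-Co1, 31.3% lies in the stretch, and of mt-Nd4 63.6%. The TPM of mt-Co1 and mt-Nd4 was divided by their full length, copied part included. If reads from the copied part went uncounted, the levels given for mt-Co1 and mt-Nd4 are too low. The part of this in their levels, and in the place of mt-Nd4 as lowest, was not tested. More diverged copies lay elsewhere. Gm13340 on chromosome 2 matched all of mt-Co1 at 97.6% identity and had 0.765 to 5.27 TPM. Gm13339 on chromosome 2 matched 49.1% of mt-Nd2 at 96.7%, with at most 0.608 TPM. Gm4076 on chromosome 13 matched 52.3% of mt-Nd5 at 95.2%, with at most 0.658 TPM.

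**Figure D1:**
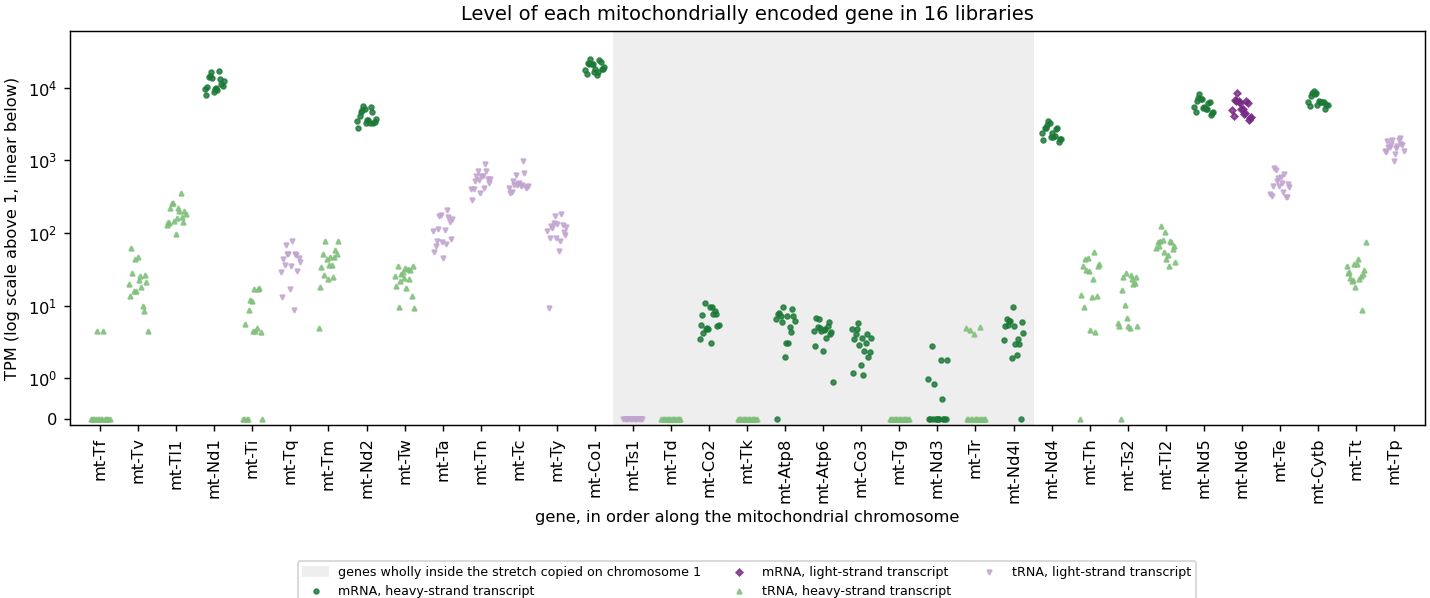
Level in TPM (logarithmic above 1, linear below) of the 35 mitochondrial genes in order along the chromosome, with 1 point per library. The genes wholly inside the copied stretch (shaded) sit at 0 to 10.8 TPM, and the 7 mRNAs outside it or reaching beyond it sit at 1778 TPM or more in every library.

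Inside the stretch, mt-Co2 (catalytic core of complex IV) had 5.45 ± 1.95 TPM in wild-type intact (SD, n = 3), 6.20 ± 3.10 in wild-type injured (n = 4), 6.73 ± 3.37 in mutant intact (n = 4) and 6.95 ± 1.50 in mutant injured discs (n = 5). For mt-Atp6 the same 4 groups had 4.70 ± 2.04, 5.27 ± 0.88, 3.85 ± 1.10 and 4.14 ± 1.97 TPM. For mt-Co3 they had 3.14 ± 1.80, 4.36 ± 1.22, 2.16 ± 1.09 and 3.01 ± 0.90 TPM. In each of these genes the groups overlapped. The other 3 mRNAs were listed at 0 in some libraries. mt-Atp8 was listed at 0 in 1 wild-type intact library and reached 9.59 TPM, mt-Nd4l was listed at 0 in 1 mutant injured library and reached 9.53 TPM, and mt-Nd3 was above 0 in 6 of 16 libraries, at most 2.76 TPM. Converted to reads through gene length and depth, these levels stood for 31 reads of mt-Co2 at most in a library, 21 of mt-Atp6, 15 of mt-Co3, 7 of mt-Atp8, 7 of mt-Nd4l and 3 of mt-Nd3. The 5 tRNAs in the stretch read likewise: mt-Ts1, mt-Td, mt-Tk and mt-Tg were listed at 0 in all 16 libraries, and mt-Tr, above 0 in 4 of them, did not pass 5.08 TPM.

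The annotated copies on chromosome 1 were not at 0. Gm28438, the copy of mt-Nd3, had 20.0 to 125.7 TPM with a median of 53.5, and Gm10222, the copy of mt-Nd4l, had 29.0 to 75.6 TPM with a median of 52.7. Both were higher than the mitochondrial gene they match in every library. The copies of mt-Co2, mt-Atp6 and mt-Co3 lay between 2.98 and 17.5 TPM, near the levels of those genes. Gm28439 reached 4.87 TPM at most, against 1778 TPM or more of mt-Nd4. How reads that match more than 1 place were counted is not given in the sources used here, and its part in these levels was not tested. The 6 low mRNAs are therefore described below only within counts over all members.

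**Figure D2:**
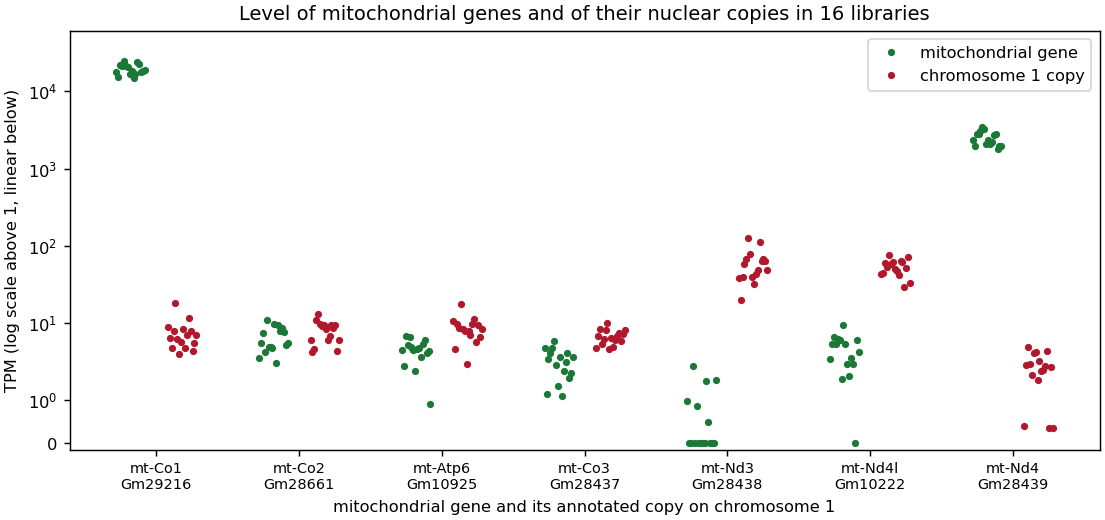
Level in TPM (logarithmic above 1, linear below) of 7 mitochondrial genes (green) and of their annotated copies on chromosome 1 (red), with 1 point per library. The copies of mt-Nd3 and mt-Nd4l lie above the genes themselves, with medians of 53.5 and 52.7 TPM, and the copies of mt-Co1 and mt-Nd4 lie far below.

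The 17 tRNA genes outside the stretch differed by strand. The 7 on the light-strand precursor had mean levels of 40.5 to 1569 TPM with a median of 489.7, and the 10 on the heavy-strand precursor had 0.562 to 188.9 TPM with a median of 24.5. The highest was mt-Tp, the proline tRNA and the first gene of the light-strand precursor, with a mean of 1569 TPM (990.2 to 2063 TPM, 164 to 742 reads). The asparagine tRNA mt-Tn had a mean of 543.0 TPM and the cysteine tRNA mt-Tc 501.5 TPM, both in the light-strand cluster between mt-Nd2 and mt-Co1. Among tRNAs outside the stretch mt-Tf, the phenylalanine tRNA at the start of the heavy-strand precursor, was lowest, with 1 read in each of 2 libraries. These genes are 59 to 75 bases long, and whether strand was used in counting is not given in the sources used here. Without strand, a read from a light-strand gene cannot be told from a read of the heavy-strand precursor that runs across it, which applies to mt-Nd6 as well.

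The 35 genes together took 4.53% to 7.70% of all TPM in a library, and the 7 abundant mRNAs made up 92.6% to 94.5% of that sum. The share in wild-type intact discs was 5.29%, 4.53% and 6.35%. It was 6.90%, 7.70%, 7.27% and 6.89% in wild-type injured discs, so that each injured wild-type library lay above all 3 intact ones. In mutants the intact share was 4.97%, 5.45%, 5.00% and 5.08%, and the injured share was 7.43%, 6.65%, 5.07%, 5.21% and 5.53%. Here injured mutants 3, 4 and 5 lay inside the intact range or just above it, and injured mutants 1 and 2 stood clear of it. Group means were 5.39% ± 0.91, 7.19% ± 0.38, 5.13% ± 0.22 and 5.98% ± 1.02 (SD, n = 3, 4, 4 and 5) for wild-type intact, wild-type injured, mutant intact and mutant injured discs. As a share of reads rather than of TPM, the same genes took 1.33% to 2.16%.

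Injury in wild-type mice went with higher levels of the abundant mitochondrial mRNAs in the mean, but no mitochondrial gene passed the test. mt-Nd1, a core membrane subunit of complex I, had 9536, 7959 and 10102 TPM in intact and 13943, 14565, 16293 and 13536 TPM in injured discs. The groups did not overlap, and the difference in mean log2(TPM + 1) was 0.67 ± 0.14 (SE). mt-Cytb, the cytochrome b of complex III, had 6383, 5669 and 7781 TPM in intact and 8600, 8934, 8155 and 8419 TPM in injured discs, again without overlap and with a difference of 0.38 ± 0.10. The limma test across 24188 genes gave an adjusted p of 0.398 for mt-Nd1 and 0.503 for mt-Cytb. The differences of the other 5 abundant mRNAs were 0.55 ± 0.17 for mt-Nd2, 0.28 ± 0.13 for mt-Co1, 0.42 ± 0.16 for mt-Nd4, 0.41 ± 0.15 for mt-Nd5 and 0.42 ± 0.23 for mt-Nd6, with limma adjusted p-values of 0.283 to 0.816. The 13 markers of skeletal muscle, a tissue that borders the disc, summed to 265.7 to 1092 TPM in the intact and 114.1 to 303.7 TPM in the injured wild-type discs. With the muscle markers as a covariate the differences were 0.54 for mt-Nd1 and 0.32 for mt-Cytb, and those of the other 5 were smaller by over 1.5 times, at 0.37 for mt-Nd2, 0.16 for mt-Co1, 0.24 for mt-Nd4, 0.24 for mt-Nd5 and 0.16 for mt-Nd6. Without wild-type intact mouse 2 the difference was 0.17 for mt-Co1 and 0.25 for mt-Nd6, and quantile normalization gave 0.02 for mt-Co1.

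Of the 30 mitochondrial genes that passed the filter on low values (at least 1 TPM in at least 3 libraries), limma called 0 at an adjusted p under 0.05 for injury in wild type, and 7 had an unadjusted p under 0.05. Over all genes tested, 0.116% were called in this comparison and 17.2% had an unadjusted p under 0.05. The groups did not overlap in 10 of the 30, all higher in injured discs, beside 9.22% of all tested genes that were higher and 6.34% that were lower without overlap. These 10 were mt-Nd1, mt-Nd2, mt-Nd5, mt-Cytb and 6 tRNAs, mt-Tn and mt-Tc among them. The median difference over the 30 was 0.42, beside 0.01 over all genes. The moderated standard error that limma used for the most abundant genes was wider than their own spread gave, 0.40 against 0.14 for mt-Nd1 and 0.55 against 0.13 for mt-Co1, since the fit lets the prior spread depend on the level. With a prior that does not depend on the level, the adjusted p of mt-Nd1 was 0.124.

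**Figure D3:**
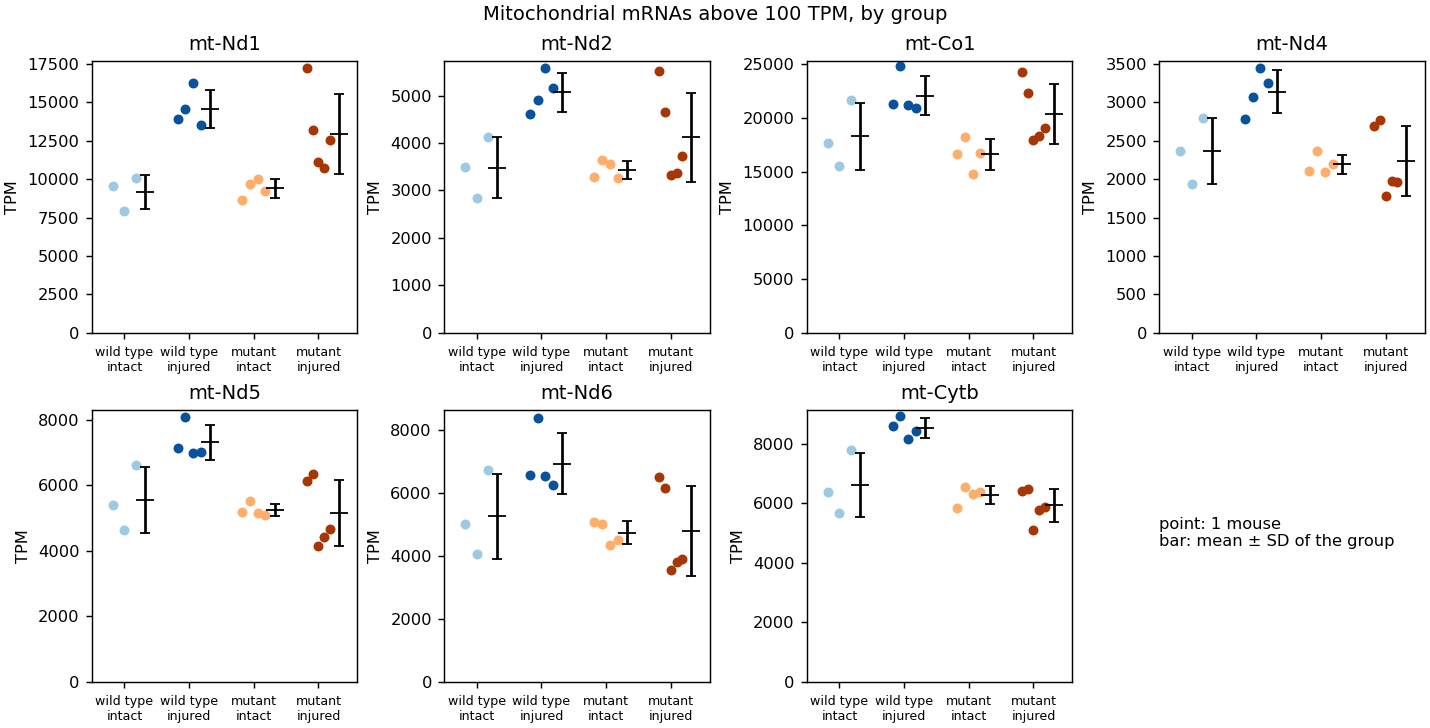
Level in TPM of the 7 abundant mitochondrial mRNAs by group, with 1 point per mouse and bars for the mean and SD. For mt-Nd1 and mt-Cytb all 4 wild-type injured mice lie above the 3 wild-type intact mice, while the mutant injured mice spread widely, from 10707 to 17232 TPM for mt-Nd1.

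Injury in mutants went with a higher level of mt-Nd1 and with mean levels of mt-Nd4, mt-Nd5, mt-Nd6 and mt-Cytb close to those of intact discs. mt-Nd1 had 8648, 9684, 10049 and 9232 TPM in intact and 17232, 13213, 11144, 10707 and 12537 TPM in injured mutants. Every injured value exceeded every intact one, and the log2 difference was 0.44 ± 0.13 with a limma adjusted p of 0.369. With a prior spread that does not depend on level mt-Nd1 passed, with a limma adjusted p of 0.026, and quantile normalization gave a difference of 0.30 (limma adjusted p = 0.575). mt-Co1, the catalytic subunit of complex IV, had 16668, 18234, 14807 and 16697 TPM in intact and 24237, 22337, 17928, 18295 and 19032 TPM in injured discs. The groups overlapped at 1 injured library below the highest intact one, and the difference was 0.29 ± 0.11 (limma adjusted p = 0.686), or 0.09 with quantile normalization. mt-Cytb had 5857, 6555, 6318 and 6365 TPM in intact and 6424, 6467, 5107, 5757 and 5876 TPM in injured mutants, which overlapped and differed by -0.09 ± 0.09 (limma adjusted p = 0.825). The differences were 0.23 ± 0.15 for mt-Nd2, 0.01 ± 0.14 for mt-Nd4, -0.05 ± 0.13 for mt-Nd5 and -0.03 ± 0.20 for mt-Nd6, with limma adjusted p-values of 0.454 to 0.985. The last 3 and mt-Cytb changed sign under another scaling, another term or a left-out mouse, and their direction was not resolved.

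Of the 30 tested mitochondrial genes 1 was called higher and 0 lower for injury in mutants, while 13.1% of all genes were called higher, 17.7% lower and 30.8% in either direction. Groups without overlap were found for 1 of the 30, mt-Nd1, beside 12% of all genes that were higher and 15.3% that were lower without overlap. The median difference over the 30 was 0.24, beside -0.08 over all genes. The called gene was mt-Ta, the alanine tRNA of the light-strand cluster. It had 76.2, 45.6, 111.4 and 71.8 TPM in intact and 210.1, 166.3, 142.0, 81.9 and 154.4 TPM in injured mutants. Injured mutant 4 lay below the highest intact library, so the groups overlapped. The log2 difference was 0.98 ± 0.35 (limma adjusted p = 0.0303). The call rested on 10 to 84 reads in a library and was lost when any 1 of 7 of the 9 mice was left out (limma adjusted p up to 0.107). It was kept without intact mutant 3 and without injured mutant 4.

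The mutant libraries carry 2 kinds of name in the labels, beginning with A8 for mice 1 and 2 of both groups and with M for the others; what the names stand for is not given. Within the A8 names the mitochondrial share of TPM went from a mean of 5.21% in 2 intact to 7.04% in 2 injured libraries, and within the M names from 5.04% in 2 to 5.27% in 3. The difference in mean log2(TPM + 1), injured minus intact, of mt-Nd1 was 0.72 within A8 and 0.25 within M. That of mt-Nd2 was 0.55 and 0.03, that of mt-Nd4 0.29 and -0.17, and that of mt-Cytb 0.06 and -0.19. For mt-Ta it was 1.65 and 0.44. The difference between the names was not tested, and with the naming as a term in the fit the number of mitochondrial genes called stayed at 1.

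Between genotypes in intact discs no mitochondrial gene was called, and the differences of the 7 abundant mRNAs were small. Over the 30 tested genes the log2 differences ranged from -0.86 to 2.29, with standard errors of 0.10 to 1.24. limma called 0 of 30, with 1 at an unadjusted p under 0.05, beside 0.0165% of all genes called and 3.78% with an unadjusted p under 0.05. The groups did not overlap for 1 gene, mt-Tc, which had a mean of 381.0 TPM in wild-type and 469.2 TPM in mutant discs (log2 difference 0.30 ± 0.25, limma adjusted p = 1), beside 2.77% of all genes that were higher and 3.41% that were lower without overlap. The 7 abundant mRNAs differed by -0.13 to 0.04 on the log2 scale, with standard errors of 0.10 to 0.23.

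In injured discs the abundant mRNAs were lower in mutants than in wild type in the mean, and none passed the test. mt-Nd4, a core membrane subunit of complex I, had 2785, 3074, 3454 and 3251 TPM in wild-type and 2686, 2769, 1778, 1978 and 1966 TPM in mutant injured discs. mt-Nd5, another membrane subunit of complex I, had 7142, 8097, 6982 and 7027 TPM in wild-type and 6146, 6347, 4163, 4432 and 4682 TPM in mutant injured discs. In these 2 genes and in mt-Cytb every mutant library lay below every wild-type one, though for mt-Nd4 the gap between the groups was narrow. The log2 differences were -0.51 ± 0.14 for mt-Nd4, -0.52 ± 0.13 for mt-Nd5 and -0.53 ± 0.09 for mt-Cytb, with limma adjusted p-values of 0.149, 0.252 and 0.254. For mt-Nd6, the light-strand gene, the difference was -0.57 ± 0.20 (limma adjusted p = 0.260) and the groups overlapped. mt-Nd1 differed by -0.19 ± 0.13, mt-Nd2 by -0.32 ± 0.15 and mt-Co1 by -0.12 ± 0.11 (limma adjusted p = 0.433 to 0.915).

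Over the 30 genes limma called 0, with 2 at an unadjusted p under 0.05, beside 0.918% of all genes called and 20.3% with an unadjusted p under 0.05. The 3 genes without overlap stood beside 3.86% of all genes that were lower and 0.905% that were higher without overlap. The median difference was -0.24 over the 30 and -0.51 over the 7 abundant mRNAs, beside -0.09 over all genes. With a prior spread that does not depend on level, mt-Cytb passed, with a limma adjusted p of 0.0463. Since all wild-type libraries share a name beginning with D, the naming of libraries cannot be told apart from genotype. By kind of name among the injured mutants, the mean share of TPM was 7.04% in the 2 A8 and 5.27% in the 3 M libraries, against 7.19% in wild-type injured discs. mt-Nd4 had means of 2728 TPM (A8) and 1908 TPM (M) against 3141 TPM, mt-Nd5 6246 and 4426 against 7312 TPM, and mt-Cytb 6445 and 5580 against 8527 TPM. The naming term of the fit set the M names apart and put A8 mutants in 1 class with wild type. It therefore gives no genotype difference freed of naming. With it the differences of mt-Nd2, mt-Nd4, mt-Nd5, mt-Nd6 and mt-Cytb were -0.14, -0.32, -0.34, -0.27 and -0.47. Median-of-ratios scaling gave -0.21 for mt-Nd2, and quantile normalization -0.34 for mt-Nd5.

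The difference of the injury effects between genotypes (mutant minus wild type) was -0.46 ± 0.13 for mt-Cytb, -0.46 ± 0.20 for mt-Nd5, -0.45 ± 0.31 for mt-Nd6, -0.41 ± 0.22 for mt-Nd4, -0.32 ± 0.23 for mt-Nd2, -0.22 ± 0.19 for mt-Nd1 and 0.01 ± 0.17 for mt-Co1. None passed the test (limma adjusted p = 0.735 to 0.999). With the muscle markers as a covariate the differences of mt-Nd2, mt-Nd4, mt-Nd5, mt-Nd6 and mt-Cytb were -0.15, -0.25, -0.30, -0.21 and -0.41. Without wild-type intact mouse 2 they were -0.18 for mt-Nd2 and -0.28 for mt-Nd6, and quantile normalization gave -0.07 for mt-Nd4. limma called 0 of 30, with 1 at an unadjusted p under 0.05, beside 0% of all genes called and 8.18% with an unadjusted p under 0.05. A different response of the genotypes was therefore not shown for any mitochondrial gene.

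**Figure D4:**
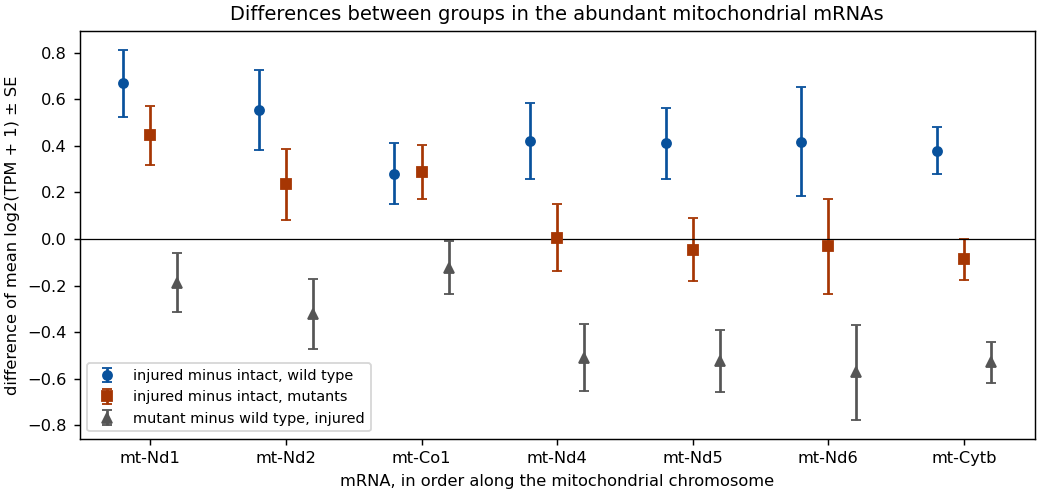
Differences of mean log2(TPM + 1) of the 7 abundant mitochondrial mRNAs, with ordinary standard errors of the fit, for injury in wild type (circles), injury in mutants (squares) and mutant against wild type in injured discs (triangles). The wild-type injury differences lie between 0.28 and 0.67, and those of mutants between -0.09 (mt-Cytb) and 0.44 (mt-Nd1). The 3 comparisons share libraries.

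Among the abundant mRNAs, mt-Nd1 was higher relative to mt-Cytb in injured than in intact discs. The level of mt-Nd1, the first mRNA along the heavy-strand precursor, divided by that of mt-Cytb, the last, cancels the scaling of a library. This ratio was chosen after the values were seen and has no test. It was 1.49, 1.40 and 1.30 in wild-type intact and 1.62, 1.63, 2.00 and 1.61 in wild-type injured discs. In mutants it was 1.48, 1.48, 1.59 and 1.45 in intact and 2.68, 2.04, 2.18, 1.86 and 2.13 in injured discs. In both genotypes every injured value was above every intact one. Group means were 1.40 ± 0.10, 1.71 ± 0.19, 1.50 ± 0.06 and 2.18 ± 0.31 (SD, n = 3, 4, 4 and 5) for wild-type intact, wild-type injured, mutant intact and mutant injured discs. By kind of library name the mean ratio in mutants was 1.48 in intact and 2.36 in injured A8 libraries, and 1.52 and 2.06 in M libraries. The ratio of mt-Co1 to mt-Cytb was 2.34 to 2.85 in intact mutants and 3.18 to 3.77 in injured mutants. In wild type it was 2.74 to 2.78 in intact and 2.48 to 2.77 in injured discs. Part of mt-Co1 lies in the copied stretch, so the size of this ratio may depend on how reads there were counted. That was not tested. The ratio of mt-Nd6 to mt-Cytb had means of 0.79 and 0.81 in wild-type intact and injured discs, and of 0.76 and 0.80 in mutant intact and injured discs.

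**Figure D5:**
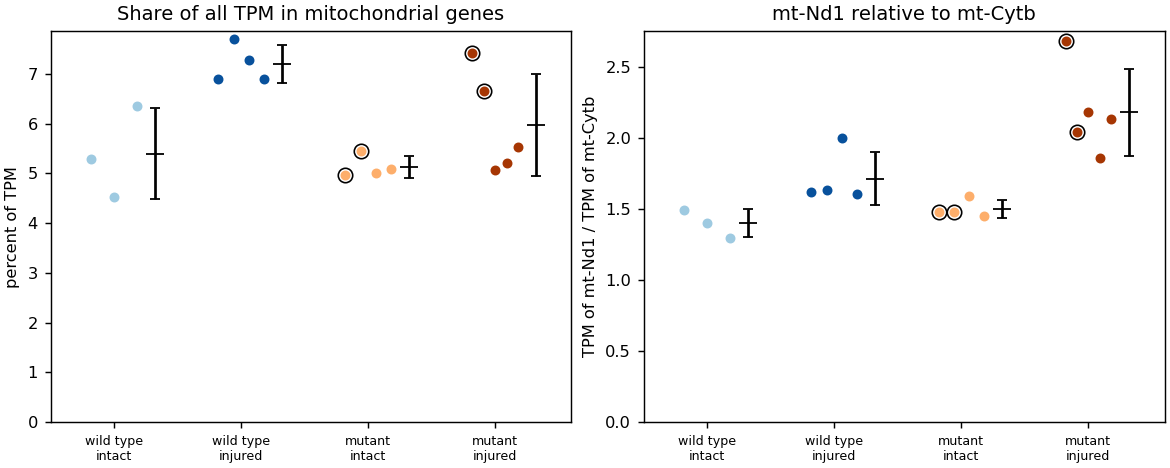
Left, percent of all TPM in the 35 mitochondrial genes, and right, TPM of mt-Nd1 divided by TPM of mt-Cytb, with 1 point per mouse, bars for the mean and SD, and rings around mutant libraries whose names begin with A8. The share in injured mutants is high in the 2 ringed libraries (7.43% and 6.65%) and 5.07% to 5.53% in the other 3, while the ratio is above the intact range in all 5.

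Nuclear genes that serve the mitochondrion were taken from lists of known members. For injury in mutants 17 of the 78 tested nuclear subunits of complexes I to V were called higher and 4 lower, beside 13.1% and 17.7% of all genes, with a median log2 difference of 0.08 beside -0.08 over all genes. By complex, 3 were higher and 2 lower of 36 in complex I, 3 and 0 of 4 in complex II, 3 and 0 of 9 in complex III, 4 and 1 of 14 in complex IV, and 4 and 1 of 15 in complex V. Cox5a, a subunit of complex IV, had 14.6 ± 3.4 TPM in intact (SD, n = 4) and 30.9 ± 4.1 TPM in injured mutants (n = 5; log2 difference 1.05 ± 0.16, limma adjusted p = 0.00075). Cox7a1, the form of its subunit found in heart and skeletal muscle, rose by 1.68 ± 0.59, and Cox4i2, a form known for its expression under low oxygen, fell from 647.6 to 271.2 TPM (-1.34 ± 0.34). The muscle markers summed to 31.1 to 872.6 TPM in the injured mutants and 174.9 to 220.5 TPM in the intact ones, and their part in the level of Cox7a1 was not tested.

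In complex I, Ndufb6 (0.65) and Ndufs6 (0.49) rose and Ndufa6 (-0.57) and Ndufb11 (-0.33) fell on the log2 scale. Sdhd (0.54) and Sdhc (0.49), membrane anchors of complex II, rose. So did Uqcrq (0.56) and the Rieske protein Uqcrfs1 (0.49) of complex III, and Atp5b (0.47) and Atp5e (0.43) of ATP synthase, of which Atp5g2 (-0.48) fell. Cox5a and Cox4i2 had means of 30.9 and 271.2 TPM in injured mutants, beside a mean of 20366 TPM of mt-Co1 of the same complex. In the other 4 comparisons limma called 0 of the 78, beside 0% to 0.918% of all genes. At an unadjusted limma p under 0.05 there were 11 for injury in wild type (17.2% of all genes) and 2 for genotype in intact discs (3.78% of all genes). There were 8 for genotype in injured discs (20.3% of all genes) and 5 for the difference of injury effects (8.18% of all genes).

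Of the 16 genes for transcription and replication of mitochondrial DNA 0 were called higher and 1 lower for injury in mutants, where 13.1% of all genes were called higher and 17.7% lower. That was Mterf2, of the mitochondrial transcription termination factor family, at -0.43 ± 0.12. Polrmt, the mitochondrial RNA polymerase, had 14.9 ± 2.7 TPM in intact and 19.5 ± 3.0 TPM in injured mutants (0.37 ± 0.14, limma adjusted p = 0.0605). Tfam, which packages mitochondrial DNA and starts its transcription, had 11.8 ± 1.9 and 10.6 ± 1.3 TPM (-0.14 ± 0.11, limma adjusted p = 0.446). Of the 22 genes for processing and decay of mitochondrial RNA 3 were called higher and 1 lower, beside 13.1% and 17.7% of all genes. Tbrg4 (0.86) and Fastkd3 (0.59), both FASTK family proteins, rose, and Grsf1 (-0.30), an RNA-binding protein of mitochondrial RNA granules, fell. Lrpprc, which stabilises mitochondrial mRNAs, differed by 0.28 ± 0.11 (limma adjusted p = 0.0864), and Elac2, which cuts the 3′ ends of tRNAs, by 0.16 ± 0.10 (limma adjusted p = 0.306).

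Of 10 tested regulators of mitochondrial biogenesis 4 were called higher and 1 lower, beside the same 13.1% and 17.7% of all genes. Ppargc1a, the coactivator PGC-1alpha, stayed under the filter, with 0.470 to 0.668 TPM in intact and 0.0929 to 0.580 TPM in injured mutants. Pprc1, a coactivator related to Ppargc1a, rose by 1.13 ± 0.20, from 20.6 to 45.7 TPM. Nfe2l2, the oxidative stress factor Nrf2, rose by 0.76 ± 0.20. Ppara, a nuclear receptor that drives fatty acid oxidation, fell by 0.68 ± 0.23 on the log2 scale from a mean of 2.98 TPM. Of 15 carriers, channels and matrix enzymes used as measures of mitochondrial content 6 were called higher and 2 lower, beside these shares. Slc25a5, an ADP/ATP carrier, rose by 1.64 ± 0.24 (50.9 to 160.0 TPM) and Cs, citrate synthase, by 0.77 ± 0.13, while the outer-membrane channel Vdac1 (-0.46) and the import receptor Tomm20 (-0.33) fell. In the other 4 comparisons limma called 0 genes of these lists, beside 0% to 0.918% of all genes. At an unadjusted p under 0.05 for injury in wild type there were 1 of the 16 transcription and replication genes, 4 of the 22 processing genes, 4 of the 10 biogenesis regulators and 7 of the 15 content genes, beside 17.2% of all genes. For genotype in intact discs there were at most 3 of any list (3 of the 22 processing genes), beside 3.78% of all genes. For genotype in injured discs there were at most 3 (3 of the 15 content genes), beside 20.3% of all genes. The difference of injury effects had at most 1 of any list, beside 8.18% of all genes.

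Macrophage marker sums were higher in every injured than in every intact library of the same genotype, and neutrophil sums were so only in mutants. Erythroid sums overlapped in both genotypes, and disc sums overlapped in wild type but not in mutants. In wild-type injured mice 1 to 4 the macrophage sums were 280.7, 436.7, 4116 and 2673 TPM, and the neutrophil sums 11.2, 12.5, 187.9 and 143.0 TPM. The 10 macrophage markers summed to 178.7 to 212.9 TPM in wild-type intact, 280.7 to 4116 in wild-type injured, 162.2 to 276.8 in mutant intact and 911.0 to 8383 TPM in mutant injured discs. The 10 neutrophil markers summed to 13.4 to 19.5, 11.2 to 187.9, 6.20 to 11.4 and 18.9 to 1012 TPM in the same groups, with Mpo at 0 in every library of all groups but mutant injured, Ltf at 0 in mutant intact and Elane at 0 in mutant injured. The 7 erythroid markers summed to 265.5 to 728.8, 112.7 to 1474, 68.1 to 273.3 and 183.9 to 1182 TPM, with Hba-a2 at 0 in mutant intact discs. None of the 13 skeletal muscle markers was at 0 in all libraries of a group. The 10 markers of disc cells and matrix summed to 18168 to 22156, 12975 to 23357, 19225 to 22010 and 7563 to 16959 TPM, with none at 0. The members of this list did not move together. In mutants Acan had 5926 to 6913 TPM in intact and 2426 to 7024 TPM in injured discs. Col2a1 had 1946 to 3316 and 657.8 to 3713 TPM, Sox9 353.0 to 553.7 and 376.0 to 971.9 TPM, and Comp 3449 to 3849 and 250.5 to 1324 TPM. Like Comp, Fmod (2473 to 2694 and 441.2 to 1427 TPM) and T (1789 to 2916 and 21.5 to 1568 TPM) were lower in injured mutants without overlap. Krt8 had 380.7 to 634.3 and 6.69 to 444.7 TPM, and Krt19 337.3 to 647.9 and 2.23 to 372.8 TPM. Col1a1 had 661.3 to 1296 and 607.3 to 2286 TPM. The part of the macrophage, neutrophil, erythroid and disc markers in the mitochondrial levels was not tested, and in pooled tissue fewer cells of a type and less RNA per cell cannot be told apart.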

How the data were processed

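Intervertebral disc RNA of 16 mice was extracted with Trizol and depleted of ribosomal RNA before library construction, per the labels' protocols, although the molecule field names poly(A) RNA. The authors deposited TPM values per gene, with 1 column per mouse. The submitters' processing notes name GRCm38 and bcl2fastq 2.20. The aligner, the counting, its use of strand and its treatment of reads with several matches are not given in the sources used here.

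Positions and exon lengths came from GENCODE mouse release 21 by Ensembl identifier (49056 of 49315 found). TPM times length, divided by what 1 read is worth in a library, gave implied reads (10220126 to 24881565 in a library), with 93.2% to 94.1% of low values within 0.05 of a whole number. Precision is given as the spread between mice. Nuclear copies were annotated transcripts matching a mitochondrial one at 95% identity or more over 100 bases or more (BLAST+ 2.17.0).

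The test was limma 3.58.1 in R 4.3.3 (eBayes with trend) on log2(TPM + 1), for the 24188 genes that reached 1 TPM in 3 or more libraries, with all 16 libraries in 1 fit and Benjamini-Hochberg adjustment over all tested genes at 0.05. The script was tested on simulated data. Each mouse is 1 replicate. No pair of libraries was identical. Same-numbered mice of different groups are different animals, so no pairing was used.

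The members and gene lists were chosen with earlier results of these data known. All mRNAs, tRNAs that were called or among the 3 highest or lowest in mean level, 5 listed regulators (Polrmt, Tfam, Lrpprc, Elac2 and Ppargc1a) and the 2 largest called rises and falls of a list were to be named; Ppargc1a did not pass the filter. Alternatives were a pseudocount of 0.1, other filters and scalings, no trend, fewer groups, a replicate block, library naming (M names against all others), muscle markers and leaving out each mouse. No test was made of sums over members. The values of 1 marker gene are not reported here.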

Additional observations from a re-analysis of the deposited data

Results flagged for a closer look

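Among 39 sets of values examined for a library far from the rest of its group, 4 were found, all in wild-type injured discs, where there are 4 mice. Wild-type intact discs, with 3 mice, were not examined. The bound was the 95% critical value of Dixon's ratio of gap to range, which chance passes in about 1 of 20 independent sets. The sets are not independent, and 3 of the 4 are mRNAs of the same library. In wild-type injured mouse 3 the ratio of mt-Nd1 to mt-Cytb was 2.00, against 1.61 to 1.63 in the other 3. In wild-type injured mouse 2, 3 mRNAs were highest: mt-Co1 at 24790 TPM against 20963 to 21288 TPM, mt-Nd5 at 8097 TPM against 6982 to 7142 TPM, and mt-Nd6 at 8379 TPM against 6242 to 6570 TPM. The 2 mice differ in cell type markers, with macrophage markers summing to 4116 TPM in mouse 3 and 436.7 TPM in mouse 2, and erythroid markers to 1474 TPM and 112.7 TPM. Their part in these values was not tested.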

How the results depend on the processing

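For injury in mutants the number of mitochondrial genes called, 1 in the main test, was 2 with quantile normalization, 2 without a trend and 0 with a replicate block, and 0 to 2 without single mice. mt-Ta, the called gene, was lost with the replicate block (0.96), and mt-Nd1 passed without a trend (adjusted p = 0.026) and mt-Tp with quantile normalization (0.56, adjusted p = 0.0344). For genotype in injured discs the number went from 0 to 1 without a trend (mt-Cytb). In the other 3 comparisons it was 0 under every alternative run. The mitochondrial share of TPM differed between genotypes in intact discs by -0.27 percentage points, and by -0.70 to 0.21 without single mice, the positive value being without wild-type intact mouse 3. The other share differences kept their sign without single mice, at 1.37 to 2.28 (injury in wild type), 0.49 to 1.08 (injury in mutants) and -1.58 to -0.99 (genotype in injured discs).

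Of 1122 recomputed log2 differences of 11 genes, 58 changed sign, none of them for injury in wild type. For injury in mutants those that changed sign were mt-Nd4 with the muscle markers as covariate (-0.00635) and -0.0767 to 0.0829 without single mice, mt-Nd5 with median-of-ratios scaling (0.0441) and -0.127 to 0.0254, mt-Nd6 with that scaling (0.0588), the replicate block (0.0300) and the naming term (0.0186) and -0.155 to 0.0643, and mt-Cytb with that scaling (0.00404). For genotype in injured discs they were mt-Co1 with the naming term (0.0285), mt-Tp with quantile normalization (-0.0549), and without single mice mt-Tp (-0.0235 to 0.128), mt-Ta (-0.0726 to 0.364), mt-Tn (-0.0403 to 0.184) and mt-Tc (-0.0849 to 0.220). For genotype in intact discs they were mt-Nd1 with the muscle markers (-0.0825); mt-Nd2 with median-of-ratios scaling (0.00761), quantile normalization (0.0763), the replicate block (0.0328) and the naming term (0.149); mt-Nd4 (0.0569), mt-Nd5 (0.0829), mt-Nd6 (0.127) and mt-Ta (0.0136) with the naming term; mt-Nd5 (0.00119), mt-Nd6 (0.00326) and mt-Cytb (0.0646) with quantile normalization; and mt-Ta with the replicate block (0.0182). Without single mice the ranges there were -0.0640 to 0.108 for mt-Nd1, -0.143 to 0.127 for mt-Nd2, -0.234 to 0.0299 for mt-Nd4, -0.191 to 0.0660 for mt-Nd5, -0.295 to 0.0686 for mt-Nd6, -0.169 to 0.0593 for mt-Cytb and -0.231 to 0.255 for mt-Ta. For the difference of injury effects they were mt-Co1 scaled over genes other than mitochondrial ones and Rn7sk (-0.00877) and -0.122 to 0.119 without single mice, mt-Tc with the muscle markers (0.0236), and mt-Ta at -0.0932 to 0.393 without single mice. For injury in wild type, the muscle markers as covariate took mt-Ta from 0.80 to 0.52 and mt-Tc from 0.43 to 0.20, beside the mRNA values given with that comparison. The causes were not tested. Of the 21 pairs of same-numbered libraries, 1 had deviations correlated over 0.1 (-0.22 to 0.15). A sum with ribosomal RNA genes was not run. Genes at a few reads limit what can be said of the mRNAs and tRNAs in the copied stretch.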
